A study of Mus musculus with 3 samples.

Results

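Collagen genes were followed through E18.5 mouse glandular stomach (hindstomach) in single-cell RNA sequencing of 3 libraries, 1 for each genotype. The control carried Shh-Cre alone, the second library Shh-Cre with YAP5SA, and the third Shh-Cre with YaploxP/loxP, called the Yap knockout here. Shh-Cre is a recombinase active in the stomach epithelium and is shared by the 3 libraries, and YAP5SA is a form of the co-activator YAP that escapes its inhibitory phosphorylation. The collagens were every symbol made of Col, a number, a and a number, which gave 44 of the 46675 symbols listed. They comprised 11 fibrillar collagens, 9 collagens of basement membranes and 24 others, and each of the 44 had at least 1 UMI in every library. A UMI (unique molecular identifier) marks 1 captured RNA molecule, and levels are given as CPM, the UMIs of a gene scaled to a common total per library or class of cells. Since each genotype was 1 library, no test between genotypes was possible, and every interval printed is an exact 95% interval for counting error alone. The labels used here do not state the number of embryos behind a library.

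Collagens are extracellular proteins built from 3 chains wound into a triple helix. Fibrillar types I, III, V and XI form the cross-striated fibres that give connective tissue its tensile strength and are made mainly by fibroblasts. Type IV collagen instead forms the sheet-like network of basement membranes beneath epithelium and endothelium and around each smooth muscle cell, type VII anchors a basement membrane to the fibres below it, and types XV and XVIII are multiplexins of the basement membrane zone. FACIT collagens such as IX, XII, XIV and XVI sit on the surface of fibres, type VI forms beaded microfibrils, type VIII forms hexagonal networks, and types XIII, XVII, XXIII and XXV span the plasma membrane.

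The promoters of a fibrillar collagen and of 2 collagens that were higher in YAP5SA stroma are shown to place those genes in the genome. Each is the stretch of 250 bases directly upstream of the annotated gene start, on the + strand of GRCm38.p6 from RefSeq, while the deposited counts came from reads aligned to GRCm39. Col1a2 lies at chr6:4505368-4505617, Col7a1 at chr9:108953336-108953585 and Col9a2 at chr4:121039316-121039565. Capitals mark the CCAAT box (CCAAT) in Col1a2 and, read on the opposite strand, in Col7a1, and the TCF/LEF core (CTTTGA) in Col9a2.
Col1a2: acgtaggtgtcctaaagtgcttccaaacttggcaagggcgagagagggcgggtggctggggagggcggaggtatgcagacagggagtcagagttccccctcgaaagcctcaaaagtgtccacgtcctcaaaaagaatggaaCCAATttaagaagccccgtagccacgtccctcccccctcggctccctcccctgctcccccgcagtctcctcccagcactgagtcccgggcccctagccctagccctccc
Col7a1: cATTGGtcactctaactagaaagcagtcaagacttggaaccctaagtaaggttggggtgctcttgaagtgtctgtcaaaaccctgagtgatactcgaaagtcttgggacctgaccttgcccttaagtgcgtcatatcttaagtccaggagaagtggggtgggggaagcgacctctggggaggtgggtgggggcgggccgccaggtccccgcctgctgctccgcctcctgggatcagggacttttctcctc
Col9a2: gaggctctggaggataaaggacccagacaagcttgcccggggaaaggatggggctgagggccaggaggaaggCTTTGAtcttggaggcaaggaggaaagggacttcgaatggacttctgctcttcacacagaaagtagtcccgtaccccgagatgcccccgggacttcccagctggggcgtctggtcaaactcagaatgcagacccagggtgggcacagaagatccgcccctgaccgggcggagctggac
Of the 44 collagens, 35 had a promoter in the RefSeq table of 32851 promoters. On either strand, CCAAT was found in 13 of the 35 and in 33.8% of all promoters, CTTTGA in 9 and in 13.8%, the TATA box TATAAA in 5 and in 12.4%, and the TEAD core GGAATG in 4 and in 12.6%. These are matches of letters within the 250 bases and say nothing about binding. None of the 4 motifs contains another on either strand. The genes of type IV chains lie head to head in pairs: the starts of Col4a1 and Col4a2 are 21 bases apart on chromosome 8, and those of Col4a5 and Col4a6 are 1343 bases apart on chromosome X.

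The kept cells numbered 6959 in control, 8518 in YAP5SA and 4890 in Yap knockout, with a median of 4900 to 5225 UMIs per cell. Cells were assigned to classes by markers that contained no collagen, and a cell joined a class with at least 3 of its markers and at least 2 times as many as of any other class. In the order control, YAP5SA and Yap knockout, which later lists of 3 values follow, the stromal gate took in 761, 917 and 94 cells, the muscle gate 679, 507 and 928, the endothelial gate 56, 92 and 105, and the epithelial gate 62, 575 and 98. Between 60.4% and 73.9% of kept cells stayed ungated, and these held 71.1% to 84.4% of the collagen UMIs. The 10 stromal markers summed to 5036 to 6539 CPM in the stromal gate and to 119 to 518 CPM in the immune gate. In the stromal, muscle, endothelial, epithelial and immune gates, no marker of the class was at 0. Cells were picked by these same markers, so these levels describe the gates and do not check them. Yap1 had 53.3, 54.5 and 43.4 CPM in the control, YAP5SA and Yap knockout libraries, and in the epithelial gate 59.3, 62.1 and 21.8 CPM from 11, 211 and 8 UMIs. The reads count the 3′ ends of transcripts, and no source used here states whether they cover the floxed part of Yap1 or the YAP5SA transgene, so this does not check the labels. The numbers of gated cells per genotype depend on dissociation and on the gate and are not compared.

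Collagen RNA was also counted in cells that should not make it. In the immune gate, Col1a1 had 4276 CPM in control, 2001 CPM in YAP5SA and 466 CPM in Yap knockout, and 99.5%, 98.3% and 85.5% of its cells held at least 1 Col1a1 UMI. Summed fibrillar collagens of the immune gate were 6726, 3160 and 920 CPM in the same order. The immune gate is therefore used as the measured collagen background of its library, and a collagen level at or under it is read as background. That fibrillar background was 7.31-fold (6.93 to 7.73) higher in control than in Yap knockout and 2.13-fold higher than in YAP5SA.

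In the whole libraries, fibrillar collagens were lower in both mutants while basement membrane collagens differed little. Fibrillar collagens summed to 17525 CPM in control, 8944 CPM in YAP5SA and 3555 CPM in Yap knockout, ratios to control of 0.510 and 0.203. Basement membrane collagens summed to 1112, 906 and 1084 CPM, ratios of 0.815 and 0.975, and the other types to 3073, 1750 and 1093 CPM. Col1a1, the main chain of type I collagen, had 9792, 5002 and 1665 CPM. For all 44 together the ratios were 0.534 and 0.264 as measured, and 0.572 and 0.325 when each library was given the class shares of control. Ungated cells, with 83.8%, 72.0% and 71.8% of the UMIs, entered this as a single class. Differences in cell types among them were therefore not adjusted. The ungated cells, which held most collagen UMIs, had Col1a1 at 9853, 5047 and 1648 CPM. In a whole library, fewer cells of a type and less RNA per cell cannot be told apart.

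Within the 4 main classes, each collagen class had its own distribution. Col1a1 in control had 16458 CPM in stroma, 5921 CPM in muscle, 4125 CPM in endothelium and 4597 CPM in epithelium, so that endothelium and epithelium lay close to the immune level of 4276 CPM. Col4a1, a chain of the type IV network, had 1988 CPM in control endothelium against 625 CPM in stroma, 680 CPM in muscle, 156 CPM in epithelium and 157 CPM in immune cells. Of these classes stroma was thus highest for Col1a1 and endothelium for Col4a1. In control epithelium the fibrillar sum of 7550 CPM lay above the 6726 CPM of immune cells beyond counting error, and Col4a1 did not.

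**Figure D1:**
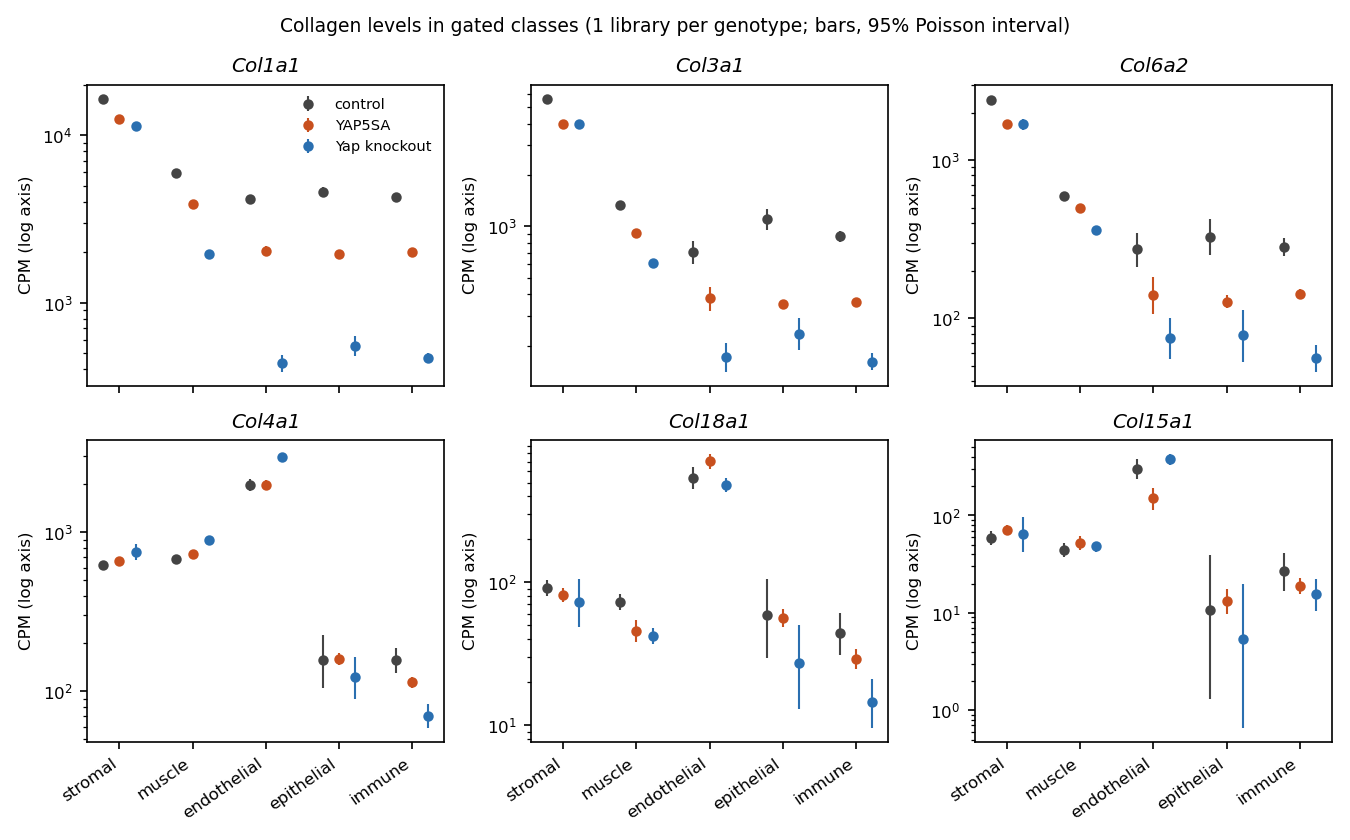
Level of 6 collagens (CPM, log axis) in the stromal, muscle, endothelial, epithelial and immune gates of the control, YAP5SA and Yap knockout libraries; points are 1 library each and bars are 95% Poisson intervals. Col1a1, Col3a1 and Col6a2 of the endothelial and epithelial gates follow the immune gate of their library, whereas Col4a1, Col18a1 and Col15a1 are highest in the endothelial gate.

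The share of measured collagens above the immune gate differed by class. A gene was measured where its mean over the 3 libraries was at least 20 CPM in that class, and it counted as above background where the interval of its ratio to the immune gate lay above 1 in all 3 libraries. In stroma 23 of 27 measured collagens did so, with 27.8% of all measured genes as background. In muscle it was 23 of 24 (27.7% of all genes), with Col14a1 as the exception. In endothelium it was 7 of 20 (19.3%), namely Col4a1, Col4a2, Col15a1, Col18a1, Col13a1, Col8a1 and Col5a2. In epithelium it was 0 of 16 (12.5%), while 8 of the 16, Col1a1, Col1a2 and Col3a1 among them, were above it in 1 or 2 libraries. The 4 stromal exceptions were Col7a1, Col26a1, Col4a5 and Col6a4, each above the immune gate in 1 or 2 libraries.

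**Figure D2:**
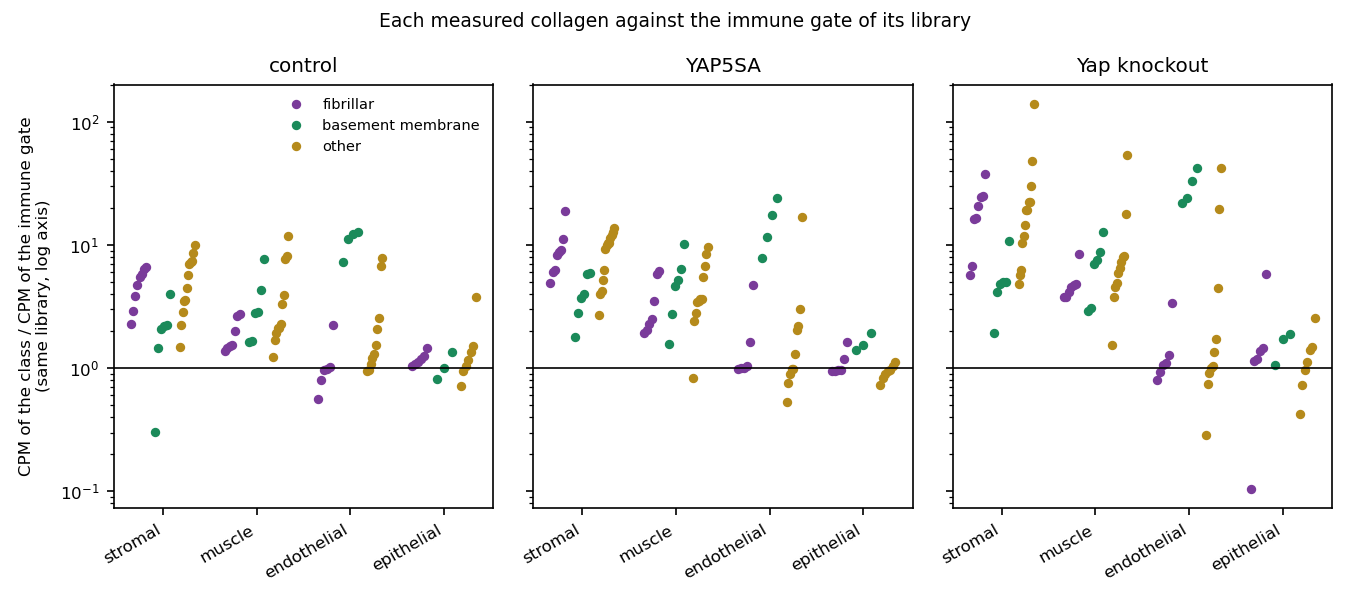
Level of each measured collagen in 4 classes divided by its level in the immune gate of the same library (log axis; 1 panel per library; colours give fibrillar, basement membrane and other types). Col6a4 of control stroma is not drawn because the immune gate held no UMI of it. Points of the stromal and muscle gates lie mostly above 1, and most fibrillar points of the endothelial and epithelial gates lie near 1. Exceptions include Col5a2 of endothelium and Col27a1 of Yap knockout epithelium, which lie higher, and Col5a2 of Yap knockout epithelium, which lies lower.

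Fibrillar collagens in stroma were somewhat lower in both mutant libraries before the background was taken off. Their sum was 30708 CPM in control, 23325 CPM in YAP5SA and 23764 CPM in Yap knockout, ratios of 0.760 (0.753 to 0.767) and 0.774 (0.757 to 0.791). After subtracting the immune level of each library, the ratios were 0.841 and 0.953. Col1a1 had 16458, 12524 and 11379 CPM, 1.31-fold and 1.45-fold lower than control. Its partner chain Col1a2 had 6898, 5505 and 6923 CPM, with a Yap knockout ratio of 1.00 (0.963 to 1.05). Col3a1, which forms type III collagen alone, had 5567, 4004 and 3997 CPM. As measured, both mutants were thus about equally low for Col3a1. Of these 3 genes, Col1a2 alone had a Yap knockout interval that included 1. The immune gate had Col1a1 at 4276, 2001 and 466 CPM, Col1a2 at 1196, 600 and 184 CPM and Col3a1 at 875, 361 and 161 CPM. Stromal levels and ratios of single genes, here and below, do not have this background taken off. The TMM factor of Yap knockout stroma was 1.24, so each stromal ratio of that library would be lower by that factor under this scaling, which corrects for differences in RNA composition.

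Type V collagen co-assembles with type I and helps to set fibre width. Its chain Col5a1 had 1114 CPM in control, 787 CPM in YAP5SA and 851 CPM in Yap knockout, and Col5a2 had 457, 332 and 420 CPM. The third chain, Col5a3, had 89.4, 45.8 and 44.1 CPM, ratios of 0.512 (0.421 to 0.622) and 0.493 (0.283 to 0.807). Col5a3 was the lowest of the type V chains relative to control in both mutants. Col11a1, a related minor fibrillar chain, had 39.3, 18.7 and 54.5 CPM with a YAP5SA ratio of 0.476 (0.350 to 0.644). Col27a1, a fibrillar collagen with a shorter helix known from cartilage, went the other way with 67.3, 97.3 and 83.0 CPM and a YAP5SA ratio of 1.45 (1.21 to 1.73).

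Basement membrane collagens of stroma differed little from control as a sum. Their sum was 1049 CPM in control, 1183 CPM in YAP5SA and 1198 CPM in Yap knockout, ratios of 1.13 (1.08 to 1.18) and 1.14 (1.03 to 1.26). Under TMM scaling the Yap knockout ratio turned to 0.919, under median-of-ratios scaling to 0.946, and under a stricter gate the YAP5SA ratio turned to 0.963, so no direction is given for this sum. Col4a1 had 625, 663 and 752 CPM and Col4a2, with which it forms the common type IV trimer, 240, 288 and 218 CPM. Col18a1 had 91.6, 81.4 and 72.6 CPM, Col15a1 58.7, 71.2 and 64.8 CPM, and Col4a5 21.3, 15.1 and 41.5 CPM. Apart from Col4a1 and Col4a5 in the Yap knockout and Col4a2 in YAP5SA, each interval of these 5 genes included 1.

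Other collagens of stroma went both ways, and their 13 measured members had a median log2 ratio of -0.18 in YAP5SA and -0.06 in Yap knockout. The type VI chains Col6a2, Col6a1 and Col6a3 are parts of one beaded filament. Col6a2 had 2405, 1702 and 1689 CPM, Col6a1 1061, 798 and 1038 CPM, and Col6a3 457, 289 and 436 CPM. All 3 were lower in YAP5SA, and in the Yap knockout Col6a2 alone was lower while Col6a1 and Col6a3 had ratios of 0.978 and 0.953 with intervals that included 1. Of the FACIT collagens, Col16a1 had 448, 375 and 428 CPM, Col12a1 189, 231 and 156 CPM, and Col14a1 385, 229 and 252 CPM. Col14a1, which binds fibres together with decorin, was 1.68-fold lower in YAP5SA and 1.53-fold (1.24 to 1.90) lower in Yap knockout. Col8a1, of hexagonal networks, had 195, 171 and 150 CPM, and its partner Col8a2 had 27.3, 45.0 and 25.9 CPM.

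A ratio of at least 2-fold, on a log2 scale after adding 5 CPM to each value, was passed by few collagens of stroma. In YAP5SA 3 of the 27 measured collagens were past it as higher (1.88% of 6965 genes) and 0 as lower (1.25%). In the Yap knockout 1 of 27 was higher (4.34%) and 0 were lower (2.57%). The median log2 ratio of the 27 was -0.25 in YAP5SA and -0.06 in Yap knockout, beside 0.01 and 0.09 over all genes. For the 8 measured fibrillar collagens the medians were -0.46 and -0.25. TMM scaling moved the Yap knockout median of all genes to -0.20 and that of the collagens to -0.34.

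**Figure D3:**
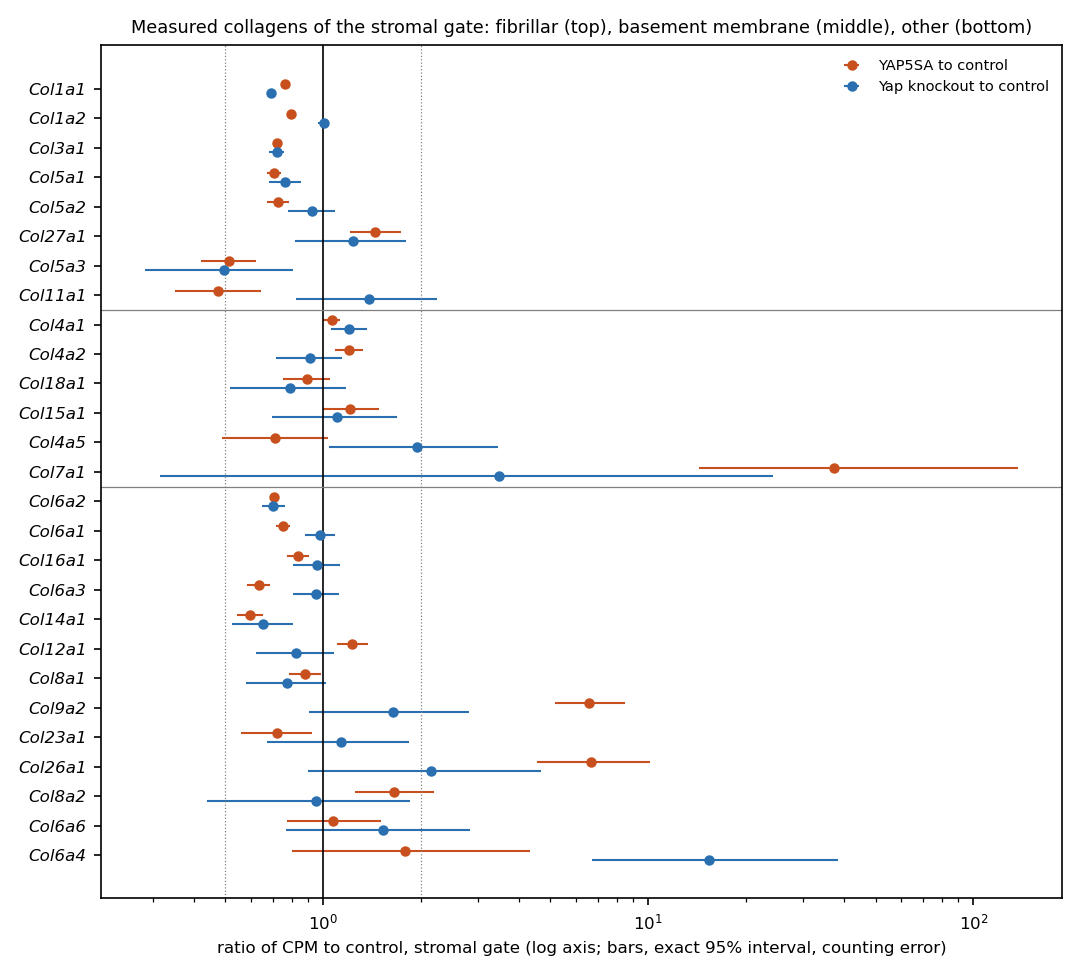
Ratio of CPM to control in the stromal gate (log axis) for the 27 measured collagens, with exact 95% intervals for counting error; dotted lines mark 2-fold. Most fibrillar and type VI genes lie between 0.5 and 1 in YAP5SA, and Col7a1, Col9a2 and Col26a1 lie far to the right there, as Col6a4 does in the Yap knockout.

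Col9a2, a chain of the FACIT type IX best known from cartilage, was 6.57-fold higher in YAP5SA stroma. Markers of glia, which also had Col9a2, summed to 52.7, 28.3 and 36.3 CPM in the stromal gates, and their part in the result was not tested. Col9a2 had 26.9 CPM in control from 72 UMIs, 177 CPM in YAP5SA from 738 UMIs and 44.1 CPM in Yap knockout from 17 UMIs, with an interval for the YAP5SA ratio of 5.15 to 8.48. The share of stromal cells with a Col9a2 UMI was 7.36%, 33.5% and 11.7%, against 1.46%, 6.45% and 4.15% in the immune gates. The stromal median depths were 2970, 3908 and 3412 UMIs per cell and the immune ones 3078, 3586 and 5216. With each cell thinned to 2000 UMIs, the stromal shares were 4.14%, 22.5% and 7.46%, from 556, 726 and 67 cells of that depth. The partner chains of type IX were far below the limit of 20 CPM. Col9a1 had 0.374, 4.31 and 5.19 CPM from 1, 18 and 2 UMIs, a YAP5SA ratio of 11.5 (1.82 to 480), and Col9a3 had 4.49, 3.83 and 5.19 CPM.

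Col7a1, which forms the anchoring fibrils under epithelium, stood at background in control stroma and above it in YAP5SA stroma. It had 1.496 CPM in control from 4 UMIs, 55.6 CPM in YAP5SA from 232 UMIs and 5.19 CPM in Yap knockout from 2 UMIs, a YAP5SA ratio of 37.2 (14.3 to 138). The ratio depended on the gate, at 10.2 with the stricter gate, 14.1 with a gate on summed marker UMIs, 22.2 with a gate by difference in markers and 25.2 with predicted doublets kept. Cells with a UMI were 0.526%, 13.4% and 2.13% in stroma and 1.46%, 4.30% and 1.04% in the immune gates, so that control stroma was at background. Its level in the epithelial gate was 21.6, 6.48 and 0 CPM from 4, 22 and 0 UMIs, and in YAP5SA it was 9.42 CPM in immune cells, both under the YAP5SA stromal level. Across the whole libraries it had 3.08, 24.9 and 3.22 CPM, 8.09-fold (6.80 to 9.70) higher in YAP5SA. Epithelial markers summed to 61.3, 194 and 96.0 CPM in the 3 stromal gates, and their part in the result was not tested.

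Col26a1, a collagen of uncertain assembly, was 6.67-fold (4.55 to 10.1) higher in YAP5SA stroma. It had 10.9, 72.4 and 23.3 CPM from 29, 302 and 9 UMIs. Cells with a UMI were 3.15%, 16.3% and 7.45% in stroma, and 2.93%, 3.01% and 1.04% in the immune gates. The control share was thus at background, and the control level was 10.9 CPM in stroma against 7.34 CPM in immune cells. In the whole libraries it had 12.7, 34.0 and 7.66 CPM.

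Col7a1, Col9a2 and Col26a1 were unevenly spread over subsets of the YAP5SA stroma. Subsets were set by at least 2 of 3 markers each: Spon2, Bmp4 and Bmp5; Agtr2, Penk and Dlk1; and the Wnt response genes Notum, Axin2 and Nkd1. The Notum subset held 72 YAP5SA cells and 0 of 761 control and 0 of 94 Yap knockout cells, which allow shares of up to 0.394% and 3.19%. In YAP5SA, Col7a1 had 156 CPM in the Notum subset, 61.4 CPM in cells of no subset, 38.1 CPM in the Spon2 and Bmp4 subset and 23.2 CPM in the Agtr2, Penk and Dlk1 subset. Col26a1 had 142, 99.2, 52.4 and 27.8 CPM in the same order. Col9a2 had 273, 183, 42.9 and 159 CPM. The Notum subset was highest for each of the 3 genes. YAP5SA cells outside it also stood above the control stroma as a whole, with 1.496, 26.9 and 10.9 CPM for Col7a1, Col9a2 and Col26a1. The 42.9 CPM of Col9a2 in the Spon2 and Bmp4 subset rests on few UMIs, as 3 UMIs amounted to 14.3 CPM there. In control, Col9a2 had 28.6 CPM in cells of no subset and 29.3 CPM in the Agtr2 subset.

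The main fibrillar genes and Col14a1 were instead lowest in the Notum subset. In YAP5SA, Col1a1 had 8070 CPM in the Notum subset against 20920 CPM in the Spon2 and Bmp4 subset, 13459 CPM in the Agtr2 subset and 11850 CPM in cells of no subset. Col1a2 had 3441 CPM in the Notum and 8400 CPM in the Spon2 and Bmp4 subset, and Col3a1 2901 and 5895 CPM, whereas Col27a1 had 93.0 and 76.2 CPM. Col14a1 had 70.8 CPM in the Notum subset against 510, 279 and 190 CPM in the Spon2, Agtr2 and no-subset cells. Control levels of Col1a1 were 19831 CPM in the Spon2 and Bmp4 subset, 15974 CPM in the Agtr2 subset and 16402 CPM in cells of no subset. Compared within a subset as measured, Col1a1 was thus close to control in Spon2 and Bmp4 cells and lower in YAP5SA in the other 2. The immune level of Col1a1, 4276 CPM in control and 2001 CPM in YAP5SA, was not taken off. Whether the lower levels would remain without it was not tested. In the Yap knockout Col1a1 had 16110, 11552 and 8665 CPM in the same order of subsets, from 15, 37 and 42 cells.

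**Figure D4:**
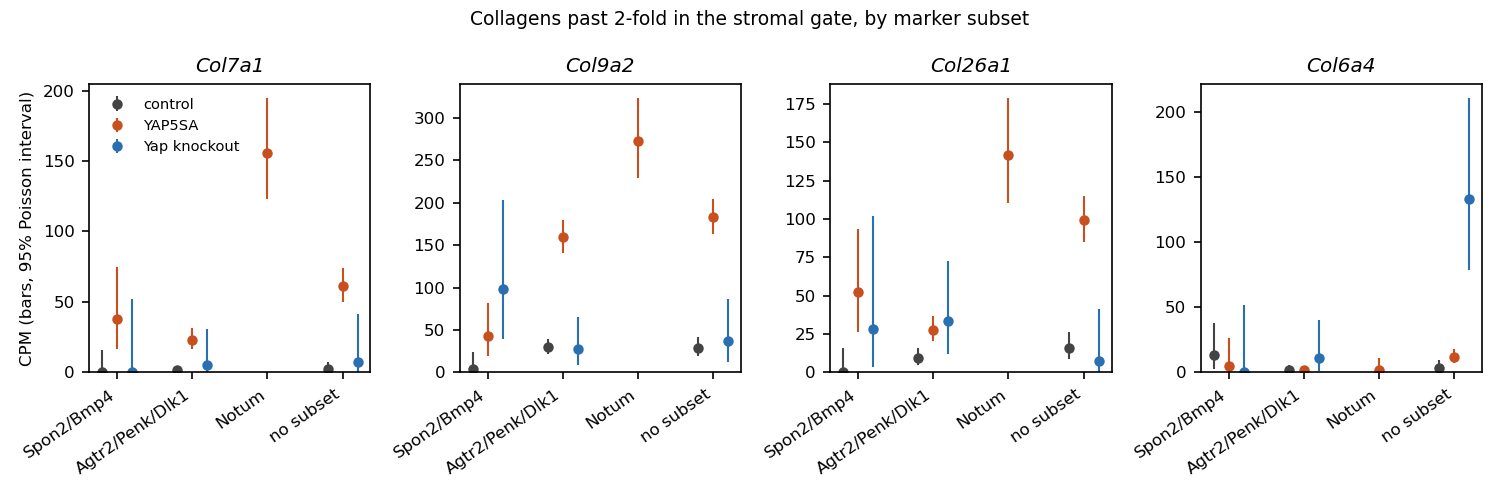
Level (CPM) of Col7a1, Col9a2, Col26a1 and Col6a4 in marker subsets of the stromal gate, by library, with 95% Poisson intervals. Col7a1, Col9a2 and Col26a1 are highest in the Notum subset of YAP5SA at 156, 273 and 142 CPM, and Col6a4 is highest in Yap knockout cells of no subset at 133 CPM.

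Col6a4, an additional type VI chain, was the one collagen past 2-fold in Yap knockout stroma. It had 3.37 CPM in control from 9 UMIs, 5.99 CPM in YAP5SA from 25 UMIs and 51.9 CPM in Yap knockout from 20 UMIs, a ratio of 15.4 (6.71 to 38.4). Those 20 UMIs came from 7 of 94 cells, 9 of them from 1 cell, and 18 were in cells of no subset. Without that cell the level was 28.7 CPM and the ratio 8.52 (3.21 to 23.3). With a stricter gate, of 20 Yap knockout stromal cells, Col6a4 had 0 UMIs there against 3 in control, so that the higher level was not seen. With the other gates and cell filters the ratio was 15.1 to 23.2. In the immune gates Col6a4 had 0, 3 and 5 UMIs. The whole Yap knockout library held 565 Col6a4 UMIs, and its levels of 3.21, 1.76 and 15.4 CPM gave a ratio of 4.80 (3.99 to 5.80) to control. Col6a4 and Col7a1, with means of 20.4 and 20.8 CPM, and Col26a1, with a mean of 35.5 CPM, reached the limit of 20 CPM only through the 1 library where they were high, so their counting past 2-fold followed from that. Just outside the limit, Col4a6 had a mean of 19.7 CPM with 9.72, 5.27 and 44.1 CPM, and Col25a1 a mean of 18.9 CPM.

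The other 15 collagens under 20 CPM in stroma were Col2a1, Col11a2 and Col24a1 of the fibrillar group, Col4a3 and Col4a4 of basement membranes, and Col6a5, Col9a1, Col9a3, Col10a1, Col13a1, Col17a1, Col19a1, Col20a1, Col22a1 and Col28a1. Of these, Col20a1 had the highest mean at 18.1 CPM and Col10a1 the lowest at 0.125 CPM. Col23a1 and Col6a6, with means of 43.4 and 26.5 CPM, were measured and stayed within 2-fold in both mutants.

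The balance between chains of one collagen differed in the Yap knockout. Col1a1 UMIs per Col1a2 UMI were 2.39 in control stroma, 2.28 in YAP5SA and 1.64 (1.57 to 1.73) in Yap knockout. The same ratio in muscle was 3.41, 3.14 and 2.23, and in the immune background 3.58, 3.34 and 2.54. It was lowest in the Yap knockout in each of these 3 gates. Col6a2 per Col6a1 was 2.27, 2.13 and 1.63 in stroma, and Col4a1 per Col4a2 was 2.60, 2.30 and 3.45 (2.70 to 4.46). UMIs count 3′ ends of molecules, so these ratios compare libraries and not the amounts of protein chains.

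In muscle each of the 6 measured basement membrane collagens stood above background in every library, by margins that differed between genes. Col4a1 had 680 CPM in control, 729 CPM in YAP5SA and 888 CPM in Yap knockout, at 4.35, 6.40 and 12.6 times the immune level. Col4a2 had 303, 339 and 306 CPM. The second pair of type IV chains, Col4a5 and Col4a6, which surround smooth muscle in many organs, had 41.5, 43.6 and 74.9 CPM and 27.9, 26.7 and 49.1 CPM. Both were higher in Yap knockout muscle, by 1.81-fold (1.49 to 2.21) and 1.76-fold (1.38 to 2.25). Col18a1 had 72.5, 45.8 and 42.4 CPM against 44.0, 29.1 and 14.5 CPM in the immune gate. Col15a1 had 44.2, 51.9 and 48.0 CPM against 26.9, 19.0 and 15.6 CPM there. The summed basement membrane collagens were 1178, 1256 and 1415 CPM, a Yap knockout ratio of 1.20 (1.16 to 1.25) that ranged from 1.09 to 1.52 over 9 alternatives.

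Fibrillar collagens in muscle were lower in both mutants before the background was taken off. Their sum was 9667, 6573 and 3901 CPM, ratios of 0.680 and 0.404, and after subtracting the immune level the ratios were 1.16 and 1.01. Col1a1 had 5921, 3858 and 1937 CPM, of which the immune level amounted to 72.2%, 51.9% and 24.1%. Col1a2 had 1737, 1229 and 867 CPM, Col3a1 1343, 912 and 607 CPM, Col5a1 358, 296 and 196 CPM and Col5a2 167, 133 and 119 CPM. Each of these 5 genes was highest in control and lowest in Yap knockout, the order also seen in immune cells. Col27a1, with 80.8, 116 and 123 CPM, and Col11a1, given below, did not have that order.

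**Figure D5:**
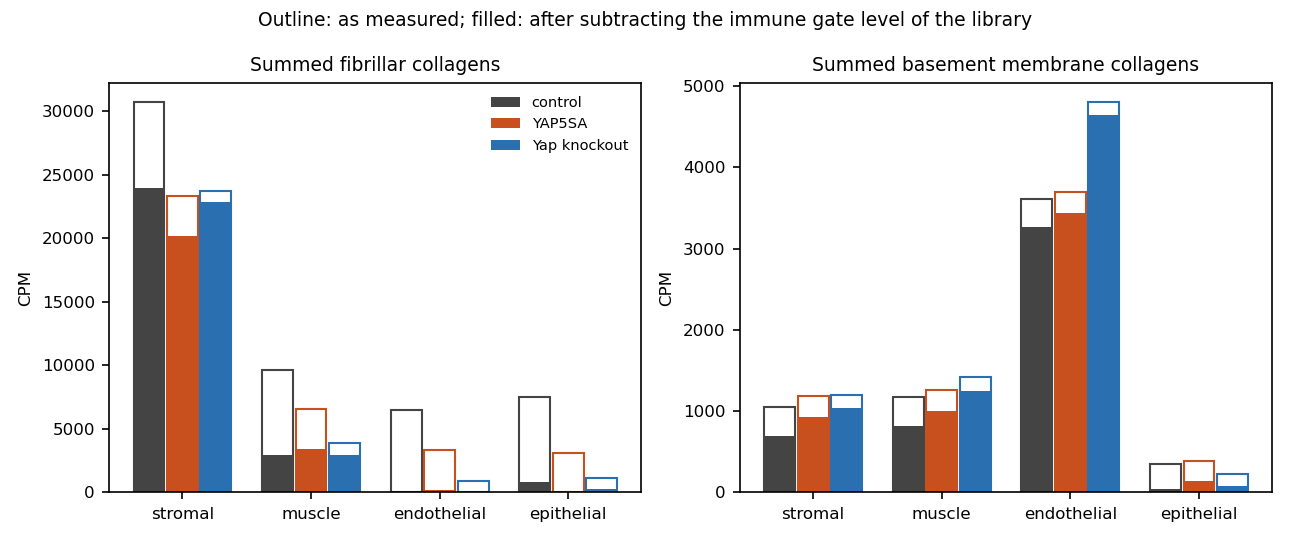
Summed fibrillar and basement membrane collagens (CPM) in 4 classes as measured (outlines) and after subtracting the immune gate level of the same library (filled). Fibrillar bars of muscle differ between libraries as measured, at 9667, 6573 and 3901 CPM, and lie close together after subtraction, whereas endothelial basement membrane bars hardly change.

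Before the background was taken off, the type VI chains and Col16a1 of muscle had the same order, with ratios closer to 1 than the fibrillar sum. Col6a2 had 593, 502 and 364 CPM, Col6a1 335, 293 and 265 CPM, Col6a3 272, 237 and 215 CPM and Col16a1 124, 102 and 88.7 CPM. The immune gate also had this order. Its levels were 281, 143 and 55.9 CPM for Col6a2 and 146, 80.1 and 53.7 CPM for Col6a1. For Col6a3 they were 130, 68.2 and 36.5 CPM, and for Col16a1 63.6, 36.5 and 19.3 CPM. The order in muscle is therefore not read as a difference made by muscle. The FACIT genes Col12a1, with 88.5, 107 and 57.3 CPM, and Col9a2, with 43.0, 50.1 and 56.4 CPM, did not follow this order. Of the 24 measured collagens of muscle, YAP5SA had 0 past 2-fold higher (0.648% of 6482 genes) and 2 lower (0.849%), Col11a1 and Col14a1. The Yap knockout had 0 higher (1.23%) and 3 lower (1.19%), Col1a1, Col3a1 and Col14a1. Col14a1 had 82.3, 30.6 and 17.4 CPM but did not stand above the immune gate, which had 67.2, 36.5 and 11.3 CPM. Col11a1 had 35.9, 14.1 and 39.0 CPM, and its YAP5SA log2 ratio of -1.10 was -0.71 after subtraction. After subtraction the Yap knockout log2 ratios were -0.16 for Col1a1, -0.07 for Col3a1 and -0.85 for Col14a1, so none of these 3 stayed past 2-fold.

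Some minor collagens of muscle stood high above background. Col19a1, a FACIT collagen known from muscle, had 59.3, 28.5 and 95.5 CPM, at 8.08, 9.60 and 17.8 times the immune level. It was 2.08-fold lower in YAP5SA and 1.61-fold (1.37 to 1.91) higher in Yap knockout. Col25a1, a transmembrane collagen needed for motor innervation of skeletal muscle, had 55.9, 87.5 and 58.3 CPM. Col23a1, another transmembrane collagen, had 53.1, 66.7 and 86.3 CPM. The order of the fibrillar genes did not hold for them, with Col25a1 highest in YAP5SA and Col19a1 and Col23a1 highest in Yap knockout.

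Among the main classes endothelium was highest for basement membrane collagens, which summed to 3611 CPM in control, 3694 CPM in YAP5SA and 4800 CPM in Yap knockout. The pericyte gate, of 3, 15 and 7 cells, had similar sums of 3600, 4564 and 3720 CPM. Glia had more Col18a1 than endothelium, at 1072, 865 and 814 CPM. The ratios of the endothelial sums were 1.02 (0.940 to 1.11) and 1.33 (1.23 to 1.44), and 1.05 and 1.42 after background subtraction. The values that follow are those of endothelium. Col4a1 had 1988, 1981 and 2976 CPM, 1.497-fold (1.35 to 1.66) higher in Yap knockout. Col4a2 had 766, 837 and 955 CPM and Col18a1, the source of endostatin, 538, 706 and 479 CPM. Col15a1 had 302, 150 and 378 CPM, at a YAP5SA ratio of 0.497 (0.347 to 0.709). The Yap knockout was thus highest for both type IV chains, and YAP5SA was lowest for Col15a1 and highest for Col18a1. Col13a1, a transmembrane collagen, had 29.0, 65.1 and 67.5 CPM from 7, 26 and 42 UMIs.

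Fibrillar collagen counted in endothelium was close to that in immune cells. Its sum was 6502, 3361 and 935 CPM against 6726, 3160 and 920 CPM in the immune gate, and Col1a1 stood at 0.965, 1.01 and 0.931 times the immune level. Col1a1 had 4125, 2024 and 434 CPM, Col1a2 1176, 606 and 146 CPM, Col3a1 704, 378 and 170 CPM, Col6a2 273, 140 and 75.5 CPM and Col5a1 240, 128 and 65.9 CPM. Col5a2, at 186, 178 and 86.8 CPM, was the fibrillar gene above the immune gate in each library, by 2.24, 4.70 and 3.37 times. Of 20 measured collagens, YAP5SA had 1 past 2-fold higher (6.0% of 7187 genes) and 5 lower (3.72%), and Yap knockout 1 higher (8.22%) and 12 lower (6.39%). The higher one was Col13a1 in both. The 5 lower in YAP5SA were Col1a1, Col6a1, Col6a3, Col14a1 and Col16a1, and the 12 in Yap knockout added Col1a2, Col3a1, Col5a1, Col5a2, Col6a2, Col8a1 and Col9a2. None of these but Col5a2 and Col8a1 was above the immune gate in 3 libraries. Col6a1 had 157, 42.6 and 56.2 CPM, Col6a3 157, 67.6 and 27.3 CPM, Col16a1 82.8, 32.6 and 19.3 CPM and Col14a1 104, 27.6 and 3.21 CPM, which reached the limit only through control. Col8a1 had 49.7, 37.6 and 20.9 CPM, and Col9a2 had 24.8, 30.05 and 6.43 CPM from 6, 12 and 4 UMIs.

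Epithelium, the tissue in which Shh-Cre acts, held no collagen above the immune gate in all 3 libraries. Its fibrillar sum was 7550, 3081 and 1167 CPM, and the immune level amounted to 89.1%, 103% and 78.8% of it. Col1a1 had 4597, 1944 and 550 CPM, Col1a2 1412, 573 and 209 CPM, Col3a1 1105, 350 and 234 CPM, and Col5a1 264, 123 and 70.8 CPM. Col6a2 had 329, 127 and 78.9 CPM, Col6a1 151, 76.6 and 59.9 CPM, and Col6a3 124, 65.4 and 54.4 CPM. All 7 were highest in control and lowest in Yap knockout, as in the immune gate. Of 16 measured collagens, YAP5SA had 0 past 2-fold higher (10.8% of 6790 genes) and 8 lower (10.7%), and Yap knockout 0 higher (11.1%) and 11 lower (10.2%).

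The 8 lower in YAP5SA epithelium were Col1a1, Col1a2, Col3a1, Col5a1, Col6a2, Col14a1, Col16a1 and Col20a1. Col16a1 had 97.0, 30.3 and 8.16 CPM, Col14a1 91.6, 38.3 and 10.9 CPM, and Col20a1 32.3, 7.07 and 21.8 CPM. Col16a1 and Col20a1, the latter from 6 control UMIs, reached the limit of 20 CPM only through control, so their call as lower followed from that. In the Yap knockout Col20a1 was not among them, and Col5a2, Col6a1, Col6a3 and Col12a1 were added, of which Col5a2 had 86.2, 44.8 and 2.72 CPM and Col12a1 37.7, 49.5 and 10.9 CPM.

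Each of the 3 measured basement membrane collagens of epithelium was above background in 1 or 2 libraries, as were 4 of 6 fibrillar ones. Col4a1 had 156, 160 and 122 CPM and stood at 0.999, 1.40 and 1.74 times the immune level, and Col4a2 had 86.2, 112 and 46.3 CPM at 0.811, 1.54 and 1.06 times. Col18a1 had 59.3, 56.3 and 27.2 CPM at 1.35, 1.93 and 1.88 times, and Col4a5 5.39, 25.9 and 21.8 CPM from 1, 88 and 8 UMIs. In YAP5SA, with 575 cells the deepest epithelial gate, Col4a1, Col4a2 and Col18a1 were above background. Col27a1 had 43.1, 32.4 and 84.4 CPM, at 5.82 times the immune level in Yap knockout from 31 UMIs. Median depth was 2224, 4538 and 2546 UMIs per cell in the epithelial gates and 3078, 3586 and 5216 in the immune gates. The part of depth in these ratios to the immune level was not tested.

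The machinery that modifies, processes, cross-links and binds collagen was followed as a list of 38 genes. Levels of these genes are given as measured and are not set beside the immune gate. In stroma 27 were measured, and YAP5SA had 0 past 2-fold higher (1.88% of all genes) and 1 lower (1.25%), while Yap knockout had 0 higher (4.34%) and 0 lower (2.57%). The lower one was P3h2, a prolyl 3-hydroxylase acting on type IV collagen, with 29.2 CPM in control and 7.43 CPM in YAP5SA. The cross-linking oxidases Lox and Loxl2 had 318 and 147 CPM in control and 184 and 87.0 CPM in YAP5SA. Pcolce, which enhances removal of the C-propeptide, had 606 CPM in control, 778 CPM in YAP5SA and 335 CPM in Yap knockout. Plod2, a lysyl hydroxylase, had 35.1 CPM in control, 46.7 CPM in YAP5SA and 70.0 CPM in Yap knockout. The list's median log2 ratios were -0.13 and -0.02.

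In muscle 24 of the 38 were measured, with 1 higher (0.648% of all genes) and 0 lower (0.849%) in YAP5SA and 1 higher (1.23%) and 3 lower (1.19%) in Yap knockout. Pcolce had 61.4 CPM in control, 138 CPM in YAP5SA and 18.6 CPM in Yap knockout, past 2-fold in both and in opposite directions. Itga1, the integrin chain that pairs into a collagen receptor, had 138, 204 and 310 CPM and was the higher one in Yap knockout. Lox had 62.7 CPM and Adamts2, which removes N-propeptides, 46.7 CPM in control, against 25.3 and 20.7 CPM in Yap knockout.

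In endothelium 22 were measured, with 2 higher (6.0% of all genes) and 0 lower (3.72%) in YAP5SA and 3 higher (8.22%) and 5 lower (6.39%) in Yap knockout. Itga2, another chain of a collagen-binding integrin, had 20.7, 52.6 and 127 CPM. In epithelium 20 were measured, with 8 higher (10.8% of all genes) and 2 lower (10.7%) in YAP5SA and 0 higher (11.1%) and 8 lower (10.2%) in Yap knockout. Pcolce had 64.7, 358 and 13.6 CPM there, P4ha1, a prolyl 4-hydroxylase subunit, 16.2, 74.2 and 29.9 CPM, and the collagen receptor kinase Ddr1 43.1 and 148 CPM in control and YAP5SA. Ddr2, a receptor of fibroblasts, had 43.1 and 7.66 CPM in the same libraries. In control, 3 UMIs amounted to 16.2 CPM in epithelium and 12.4 CPM in endothelium. The part of background RNA in the levels of this list was not tested.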

How the data were processed

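Cells of E18.5 mouse hindstomach were profiled as 3 single-cell libraries, 1 per genotype. The deposited files hold raw UMI counts for each cell. Per the file headers they were made with PISA 1.0, and the submitters' processing notes name STAR and GRCm39. No correction for free RNA is stated. Totals were 48910624 (control), 65843658 (YAP5SA) and 40857358 (Yap knockout) UMIs in 7692, 9439 and 5739 cells. Cell names are numbered labels; pairs of libraries shared 2409, 1388 and 1528 names, and 0 of these cells had equal UMI totals.

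Cells with at least 500 genes and at most 20% mitochondrial UMIs passed. Scrublet in scanpy 1.11.5 called 0 doublets at its own threshold, and 413, 511 and 311 cells in the top 6% by score were dropped instead. Cells were gated on 11 marker lists without collagens. UMIs were summed per gate and library, and ratios received exact conditional 95% Poisson intervals, which cover counting error and not biological spread. Genes at a mean of at least 20 CPM over the 3 libraries were measured, and called at 2-fold on log2(CPM + 5). Described in full were the 10 highest collagens per class and each one past 2-fold, and of the synthesis list up to 3 highest and lowest ratios. TMM factors came from edgeR 4.0.16 in R 4.3.3. The code for ratios and intervals was run on simulated Poisson counts with known folds. These hold no spread between cells or libraries and no free RNA, so they check only the calculation. The collagens, lists and limits were chosen with earlier results of these data known. Alternatives covered gating, doublets, depth, scaling, the pseudocount, the filter and background subtraction.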

Additional observations from a re-analysis of the deposited data

How the results depend on the processing

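No paired analysis was possible because each genotype has 1 library, and no library could be left out for the same reason. Ratios of summed collagens to control are given for YAP5SA and then Yap knockout, and counts are collagens past 2-fold. Among the results for summed collagens and counts of calls, 132 values stayed within the counting interval or within 1.5 times, and 90 moved. The 2 alternatives chosen after seeing the data were a gate by difference (at least 2 more markers than the next class), and subtraction of the immune level in counts of calls. The cause of each shift was not tested.

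Subtracting the immune level gave stromal ratios for all collagens of 0.850 and 0.962, muscle ratios of 1.16 and 1.13, endothelial ratios of 1.05 and 1.35 and epithelial ratios of 0.173 and 0.460; the Yap knockout fibrillar ratio in muscle turned to 1.01. With a stricter gate (4 markers and 3 times the next class) the ratios were 0.746 (stroma, Yap knockout), 0.549 (muscle, Yap knockout), 0.823 and 0.610 (endothelium), and 0.481 and 0.228 (epithelium). Gating on summed marker UMIs gave 0.732 and 0.766 in stroma, 0.511 for Yap knockout muscle and 0.472 for YAP5SA epithelium. The gate by difference gave 0.754 for YAP5SA stroma, 0.729 and 0.493 in muscle and 0.482 for YAP5SA epithelium. Thinned cells gave 0.782 and 0.775 in stroma and 0.510 for Yap knockout muscle, and doublets kept gave 0.777 for Yap knockout stroma. TMM factors gave 0.793 and 0.638 in stroma, 0.497 for Yap knockout muscle, 0.584 for Yap knockout endothelium and 0.551 for YAP5SA epithelium. Median-of-ratios factors gave 0.784 and 0.657 in stroma, 0.734 and 0.487 in muscle and 0.509 for YAP5SA epithelium. At control class shares the whole libraries gave 0.572 and 0.325.

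In stroma, the YAP5SA count of 3 higher fell to 1 at a mean of at least 50 CPM, and 1 was lower at a pseudocount of 1 CPM. The mean of Col7a1 was below 20 CPM with the stricter gate, the gate on summed UMIs, the gate by difference and thinned cells, where its YAP5SA level was 32.9, 41.5, 50.9 and 54.4 CPM. In Yap knockout stroma the count of 1 higher became 3 at a pseudocount of 1 CPM, 4 without the filter, 0 at 50 CPM, 3 with the stricter gate, 0 with doublets kept, 0 with TMM factors and 3 after subtraction. Col6a4 was not among the 3 of the stricter gate, where it had 0 UMIs, and with doublets kept its mean slipped under 20 CPM while its ratio was 15.1. The count of 0 lower there became 1 at a pseudocount of 1 CPM, without the filter, with doublets kept, with TMM factors and with the gate by difference, and 3 with the stricter gate. In YAP5SA muscle, 1 was higher without the filter and with the stricter gate, and the 2 lower became 1 at a pseudocount of 20 CPM, 0 at 50 CPM and 1 after subtraction. In Yap knockout muscle, 2 were higher after subtraction, and the 3 lower became 5 with the gate by difference and 0 after subtraction.

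In YAP5SA endothelium the 1 higher became 0 at a pseudocount of 20 CPM, 3 without the filter, 2 with the stricter gate, 0 with the gate by difference and 6 after subtraction, and the 5 lower became 3 at 50 CPM. In Yap knockout endothelium the 1 higher became 0 at a pseudocount of 20 CPM, 4 without the filter, 0 with the gate by difference and 5 after subtraction, and the 12 lower became 5 after subtraction. In YAP5SA epithelium 2 were higher without the filter, 2 with the stricter gate, 1 with TMM factors and 3 after subtraction, and the 8 lower became 5 at a pseudocount of 20 CPM, 5 at 50 CPM and 4 with TMM factors. In Yap knockout epithelium 5 were higher without the filter, 1 with the stricter gate, 2 with TMM factors and 3 after subtraction, and the 11 lower became 20 without the filter, 7 at 50 CPM, 7 with the stricter gate and 5 after subtraction. TMM moved the median log2 ratio of all genes in YAP5SA epithelium from -0.02 to 0.26, and that of collagens from -1.0 to -0.71.

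Turns of direction were followed for single genes past 2-fold with the main gate and settings, and turns of other genes are not listed. Those that turned after subtraction were Col1a1 in YAP5SA endothelium (log2 2.45), Col3a1 (1.55), Col5a1 (1.06) and Col6a2 (2.30) in Yap knockout endothelium, and Col6a1 (0.10) and Col6a3 (2.19) in Yap knockout epithelium. For these, control was at or near 0 CPM after subtraction, so these values rest on small remainders and on the 5 CPM added, and show no measured reversal. With the stricter gate the genes were Col13a1 in Yap knockout endothelium (-0.17) and Col12a1 (0.15) and Col6a1 (0.87) in Yap knockout epithelium. With the erythroid gate, of 3, 32 and 3 cells, as background, 5 collagens of stroma, 1 of muscle and 1 of endothelium were above it in 3 libraries, in place of 23, 23 and 7. Depth limits most the control epithelium (62 cells, 185571 UMIs), the control endothelium (56 cells, 241455 UMIs), the Yap knockout epithelium (98 cells, 367467 UMIs) and the Yap knockout stroma (94 cells, 385538 UMIs).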

Other observations

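Cells gated as glia, the supporting cells of nerves, carried several collagens of types IX, XVIII and XX, from 19 control, 38 YAP5SA and 65 Yap knockout cells. Of 27 measured collagens, 19 stood above the immune gate in 3 libraries, beside 11.3% of all genes measured in glia. Col18a1 had 1072 CPM in control, 865 CPM in YAP5SA and 814 CPM in Yap knockout, at 24.4, 29.7 and 56.1 times the immune level. Col9a2 had 285, 327 and 465 CPM from 17, 48 and 108 UMIs, at 77.7, 23.7 and 66.6 times the immune level. Its partner chain Col9a3 had 101, 123 and 51.7 CPM, against the 4.49, 3.83 and 5.19 CPM of stroma. Col25a1 had 184, 123 and 121 CPM. Col28a1, a collagen of peripheral nerve, had 101, 47.7 and 8.62 CPM from 6, 7 and 2 UMIs.

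Among glia, Col20a1 had 83.8 CPM in control from 5 UMIs, 517 CPM in YAP5SA from 76 UMIs and 121 CPM in Yap knockout from 28 UMIs, a YAP5SA ratio of 6.18 (2.53 to 19.6). Col4a1 had 704, 1518 and 827 CPM, a YAP5SA ratio of 2.16 (1.55 to 3.08).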
